A study of Mus musculus with 4 samples.

Results

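The neuropeptide genes examined here are *Calca*, *Pcsk1* and *Nmur1*, read in group 2 innate lymphoid cells (ILC2s). ILC2s carry no antigen receptor and are known for secreting IL-5 and IL-13. These 3 members were selected on their listings in marker tables of these same cells, so their shares of cells are a description and carry no test. Of the 3, 2 were among the 3488 genes of the tables, and *Nmur1* was in neither. The libraries came from wild-type male BALB/c mice, 8 weeks old, given PBS (control) or 0.5 µg of rIL-33 by injection into the peritoneum on each of 5 days. Cells negative for lineage markers and positive for CD127, Thy1 and ST2, the IL-33 receptor, were sorted from the liver or the lung, so every group was limited to ST2+ cells. There were 4 groups, PBS or rIL-33 in the liver or in the lung, with 1 droplet scRNA-seq library for each. Tissue from several mice was pooled in each group, so the spread between mice cannot be seen.

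Both tables joined the 4 libraries and gave no value per library, so neither rIL-33 and PBS nor liver and lung could be compared. A row says that the authors' marker search found 1 gene to be higher in 1 cluster than in the remaining cells, and is called a listing here. The cell type table compared 21 named types of sorted cells, and the ILC2 subcluster table compared 10 subclusters of ILC2s, numbered from 0. Each listing comes with 2 shares, the percentage of cells inside the cluster with a value above 0 for the gene and the same percentage among the cells outside it. A cell is said to have a gene, or the gene to be found or detected in it, where that value was above 0 in the matrix behind that table. The share that free RNA gives was not analysed here. No share, sum or limit derived from shares is thus a count of cells that express a gene. There was no replicate, and the tables hold neither sequencing depth nor the number of cells per cluster, so no interval is given for any share. A gene without a listing was lower, unchanged, too rare or untested there. The larger of the 2 shares was never below 25.0%, so a gene rarer than that inside and outside could not appear.

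Neuropeptides are made as long precursors in the secretory pathway, cut at pairs of basic residues by proprotein convertases, trimmed, and stored or released. *Calca* encodes the precursors of both calcitonin and calcitonin gene-related peptide (CGRP), which arise by alternative splicing of 1 gene. *Pcsk1* encodes proprotein convertase 1, which makes such cuts in neuroendocrine cells. *Nmur1* encodes the receptor for neuromedin U, a peptide of sensory and enteric neurons that activates ILC2s. CGRP acts on ILC2s through a receptor built from the proteins encoded by *Calcrl* and *Ramp1*, which signals through cyclic AMP.

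*Calca* was listed for subclusters 3 and 0, and its share in the other 8 is known only as an average. In subcluster 3, 55.2% of cells had it, against 21.8% of all other ILC2s, a difference of 33.4 percentage points and a ratio of 2.53. In subcluster 0 it was found in 33.3% of cells against 24.3% elsewhere, a difference of 9.0 points. The difference in subcluster 3 was several times that in subcluster 0. Every gene of the ILC2 subcluster table was listed for some subcluster. Of these genes, 11.4% were listed for subcluster 0 and 9.01% for subcluster 3. The listings of the members are to be read beside those percentages without a test. By the ratio of both shares *Calca* came 2nd of the 237 genes listed for subcluster 3, and 48th of the 300 listed for subcluster 0. *Calca* (GRCm38 chromosome 7, 114631478 to 114636357, minus strand) is a protein-coding gene with 6 coding transcripts in GENCODE M21, which end at 6 different places. The deposited values are per gene, so messages for calcitonin and for CGRP cannot be told apart.

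*Pcsk1* was listed for subclusters 9 and 0. In subcluster 9, 71.6% of cells had it against 30.2% of all other ILC2s. The difference there was 41.4 points and the ratio was 2.37. In subcluster 0 the shares were 42.9% inside and 25.7% outside, 17.2 points apart. *Pcsk1* was thus listed together with *Calca* for subcluster 0, while subcluster 3 listed *Calca* without *Pcsk1* and subcluster 9 listed *Pcsk1* without *Calca*. Of all genes in the table, 7.57% were listed for subcluster 9. *Pcsk1* came 8th of its 199 genes by ratio and 2nd by difference, and it came 26th of 300 in subcluster 0 by ratio. All 199 genes listed for subcluster 9 had the higher share inside, with a median difference of 13.9 points, whereas 190 of the 300 of subcluster 0 did. A higher share inside subcluster 9 is thus not particular to *Pcsk1* or to genes of the peptide pathway. *Pcsk1* (chromosome 13, 75089826 to 75134861, plus strand) is protein-coding, and no other annotated gene overlaps it or *Calca*.

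**Figure D1:**
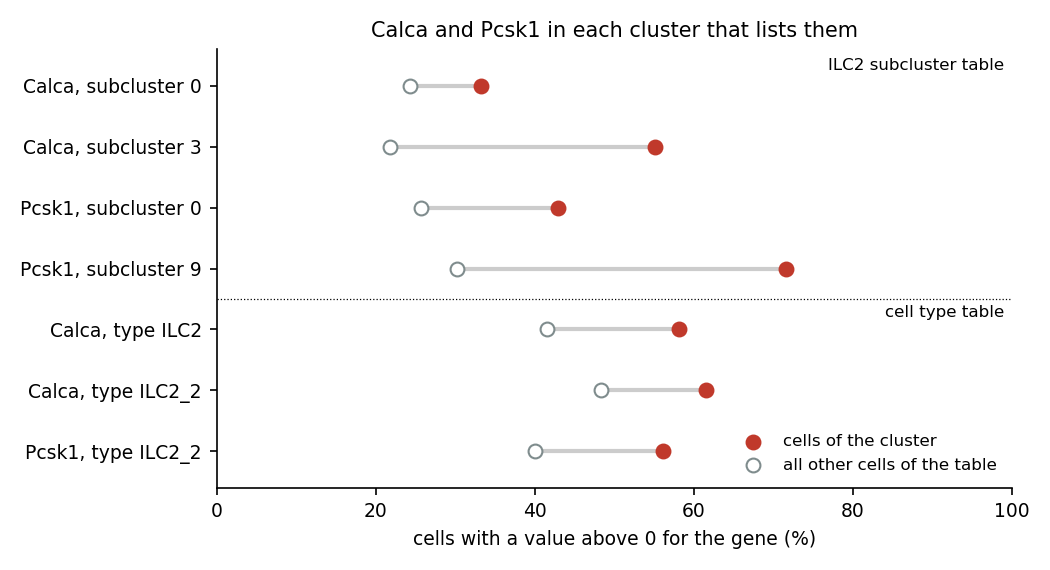
Share of cells (%) in which *Calca* or *Pcsk1* was detected in each listing, inside the cluster (filled) and in all other cells of the same table (open), with the 2 tables separated by a dotted line. The widest gaps are those of *Pcsk1* in subcluster 9 (71.6% against 30.2%) and *Calca* in subcluster 3 (55.2% against 21.8%).

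**Figure D2:**
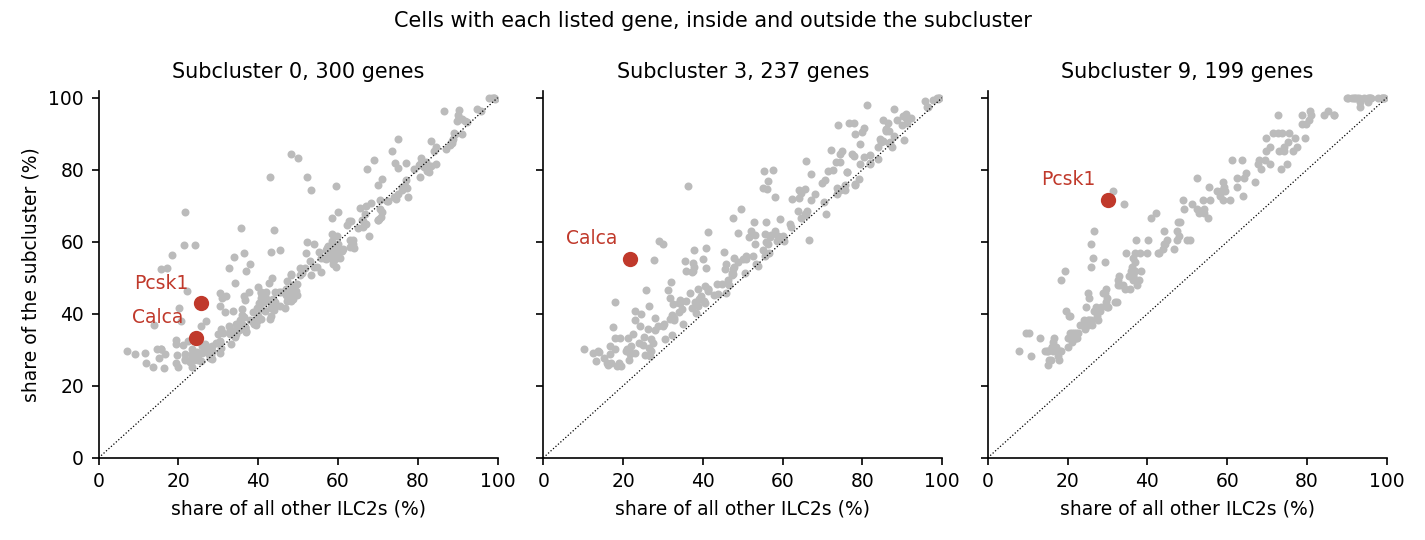
Share of cells (%) with each listed gene inside subcluster 0, 3 or 9 (vertical axis) against its share in all other ILC2s (horizontal axis), 1 point per gene, with equal shares on the dotted line and the members in red. *Calca* stands apart from most genes of subcluster 3, as does *Pcsk1* in subcluster 9, while both lie among many other genes in subcluster 0.

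*Nmur1* (chromosome 1, 86386303 to 86426228, minus strand) was listed for none of the 10 subclusters and none of the 21 cell types. Nothing about its level can be read from that, and it has no value here.

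The shares also tell where the cells with each gene lay. The size of each subcluster was solved from the shares of the other genes, since all listings of a gene must give the same share over all cells. Subcluster 0 held 27.3% ± 0.0276 (least squares SE) of the ILC2s, subcluster 3 held 14.9% ± 0.0325 and subcluster 9 held 0.617% ± 0.0210. With these sizes *Calca* was present in 26.8% of all ILC2s, and its listings in subclusters 0 and 3 gave values only 0.0232 points apart. *Pcsk1* was present in 30.4% of all ILC2s, from listings 0.0528 points apart. Genes differ in how well 3' end counting detects them, so the shares of the 2 genes are not ranked.

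Subcluster 0 held 34.0% of the ILC2s with *Calca*, and subcluster 3 held 30.8%, together 64.8% of these cells in 42.3% of the ILC2s. The other 8 subclusters had *Calca* in 16.3% of cells on average. Subcluster 0 held 38.5% of the cells with *Pcsk1*. Subcluster 9, for all its high share, held 1.45% of them because it is so small. The other 8 subclusters, subcluster 3 among them, held 60.0% of the cells with *Pcsk1* and had it in 25.3% of their cells on average. For *Pcsk1* the share elsewhere was thus nearer to the share over all ILC2s (25.3% and 30.4%) than for *Calca* (16.3% and 26.8%). The average hides how single subclusters differ, which these tables cannot resolve.

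**Figure D3:**
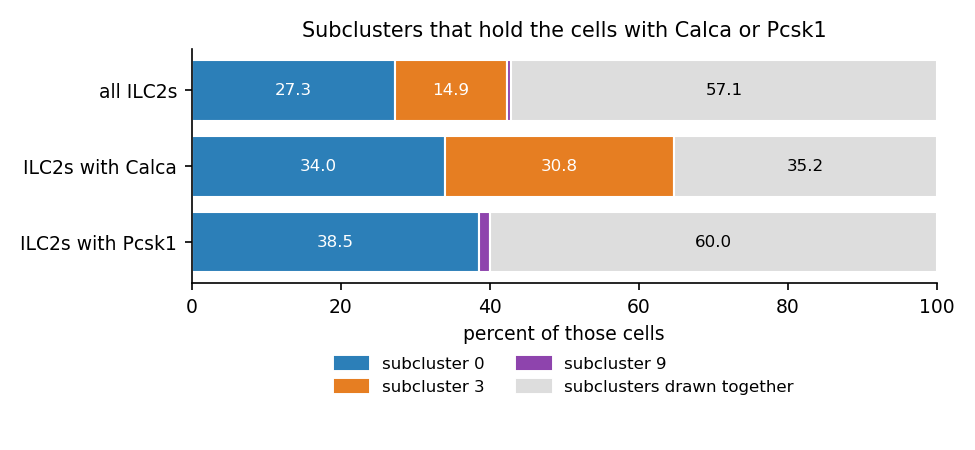
Percent of all ILC2s, of ILC2s with *Calca* and of ILC2s with *Pcsk1* (rows) that lay in subclusters 0, 3 and 9 (colours), with the subclusters that do not list the gene (top row: all but subclusters 0, 3 and 9) drawn together in grey. Subcluster 3 made up 14.9% of ILC2s and 30.8% of those with *Calca*.

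Whether a cell with *Calca* also had *Pcsk1* cannot be read from shares per gene, but these set limits. In subcluster 0 between 0 and 33.3% of cells had both genes, which leaves the question undecided there. In the type ILC2_2 of the cell type table, which also listed both, the shares were 61.5% for *Calca* and 56.2% for *Pcsk1*. At least 17.7% and at most 56.2% of those cells had a value above 0 for both, which holds for that table's own matrix.

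The promoters of *Calca* and *Pcsk1* are given because both genes were listed for subcluster 0 and for ILC2_2. Each run is the RefSeq window of 300 bases that ends shortly after the start site (GRCm38.p6), 5′ to 3′ along the gene: chr7:114636308-114636607 on the minus strand for *Calca* and chr13:75089607-75089906 on the plus strand for *Pcsk1*. Capitals mark the cyclic AMP response element TGACGTCA and its core TGACG, searched on both strands. The full element holds the core on each strand.

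Calca: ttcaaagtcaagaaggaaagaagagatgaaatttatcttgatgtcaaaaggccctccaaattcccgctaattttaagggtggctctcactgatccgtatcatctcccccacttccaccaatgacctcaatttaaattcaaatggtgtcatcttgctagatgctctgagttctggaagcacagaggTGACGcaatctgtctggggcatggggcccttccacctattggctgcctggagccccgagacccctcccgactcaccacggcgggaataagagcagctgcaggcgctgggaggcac

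Pcsk1: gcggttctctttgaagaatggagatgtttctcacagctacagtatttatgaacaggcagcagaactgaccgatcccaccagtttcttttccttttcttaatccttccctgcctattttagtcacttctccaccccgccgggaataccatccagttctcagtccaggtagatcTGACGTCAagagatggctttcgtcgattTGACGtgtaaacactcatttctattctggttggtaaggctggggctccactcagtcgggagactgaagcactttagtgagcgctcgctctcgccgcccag

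The *Calca* window held 1 core, beginning at position -65 from the start site, and no full element. The *Pcsk1* window held the full element beginning at position -78, and 1 further core at position -50. Among 32851 promoter windows of the same length, 1.79% held the full element and 20.8% held the core. Neither window held TGANTCA, the AP-1 site, which 7.81% of windows held. A GATA core (GATAA or its reverse, in 25.4% of windows) was in the *Calca* window at position -218 and not in that of *Pcsk1*. These are matches of letters and were not tested for binding.

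The other genes of the peptide pathway were taken from lists by function, drawn up with earlier results of these data known. Unlike the 2 tables, these lists also hold genes that were listed nowhere. The share of all measured genes listed for any subcluster is not known, so none stands beside the counts below. Of 21 genes for neuropeptide precursors, *Calca* was the only gene listed for any ILC2 subcluster, and 20 were listed for none. Of 18 genes for processing and secretory granules, 4 were listed for an ILC2 subcluster: *Pcsk1*, *Furin*, *Cpd* and *Pcsk7*. *Furin*, which encodes a convertase used in most cells, was found in 86.4% of subcluster 9 against 74.3% of other ILC2s. In subcluster 3 *Furin* was listed at nearly equal shares of 74.5% and 74.4%. *Furin* was also listed for subclusters 2, 7 and 8, at 83.0% to 87.3% of cells. *Cpd*, which encodes a carboxypeptidase that trims peptides after the cut, was listed for subclusters 2, 6 and 8, at 52.3% to 59.5% of cells, and for none of the subclusters that listed *Calca* or *Pcsk1*. *Pcsk7*, another convertase gene, was listed for subcluster 5, where its share of 19.3% lay below the 31.5% of other ILC2s.

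Genes for the CGRP receptor were listed for subclusters 0 and 9, both of which listed *Pcsk1*. *Calcrl* (chromosome 2, 84330626 to 84425411, minus strand) was found in 32.4% of subcluster 0 against 22.4% of other ILC2s. In subcluster 9 it was found in 38.3% of cells against 25.0%. It was also listed for subcluster 5, with a share of 8.6% inside and 25.8% outside. *Ramp1* (chromosome 1, 91179822 to 91225196, plus strand), whose product brings the receptor to the surface and gives it its affinity for CGRP, was found in nearly all cells. The shares of *Ramp1* were 96.7% against 90.3% for subcluster 0, 98.4% against 91.8% for subcluster 6 and 100% against 92.0% for subcluster 9. With *Ramp1* so widespread, the share with both receptor genes was set by *Calcrl*: it lay between 29.1% and 32.4% in subcluster 0 and was 38.3% in subcluster 9. By the same limits, both *Calca* and *Ramp1* were detected in at least 30.0% of the cells of subcluster 0. Subcluster 3, which had the higher share of *Calca* of the subclusters listing it, listed neither receptor gene. Over all ILC2s *Calcrl* was present in 25.1% and *Ramp1* in 92.0%.

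*Vipr2*, which encodes a receptor for vasoactive intestinal peptide, was listed for all 3 subclusters that listed *Calca* or *Pcsk1*. Its shares were 55.6% against 26.3% for subcluster 9, 33.8% against 23.8% for subcluster 0 and 33.6% against 25.2% for subcluster 3. It was also listed for subcluster 5, at 8.6% against 27.2%. In subcluster 9, at least 27.2% and at most 55.6% of cells had both *Pcsk1* and *Vipr2*. *Vipr2* shares its place on chromosome 12 with the annotated gene *Gm20658*, and how reads were divided between them was not given in the sources used here. Of 26 receptor genes, these 3 and *Ptger4*, a receptor gene for prostaglandin E2 listed for subcluster 5 (22.4% against 45.5%), were listed for a subcluster, and 22 were not.

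Of 23 genes for cyclic AMP and calcium signalling, 8 were listed for a subcluster, 5 of them for subcluster 3, 1 for subcluster 9 and 0 for subcluster 0. Those of subcluster 3 included *Sik1*, a kinase gene induced by cyclic AMP, at 54.7% against 35.5%. *Rgs2*, a regulator of G protein signalling, was found there in 85.4% against 72.1%, and *Crem*, a cyclic AMP response factor, in 26.2% against 17.1%. *Gnaq* and *Rgs1* differed less, at 45.0% against 39.6% and 87.3% against 86.7%. *Rgs1* was also listed for subcluster 9 (95.1% against 86.7%), and for subclusters 2 and 8. Subcluster 7, which listed no member, also listed *Crem*, *Rgs2* and *Sik1*, the last at 66.0% against 37.9%. *Gna15* was listed for subclusters 1 and 8, at 78.8% and 73.0% of cells, and *Atf4* and *Creb1* for subcluster 5, both at lower shares inside than outside.

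**Figure D4:**
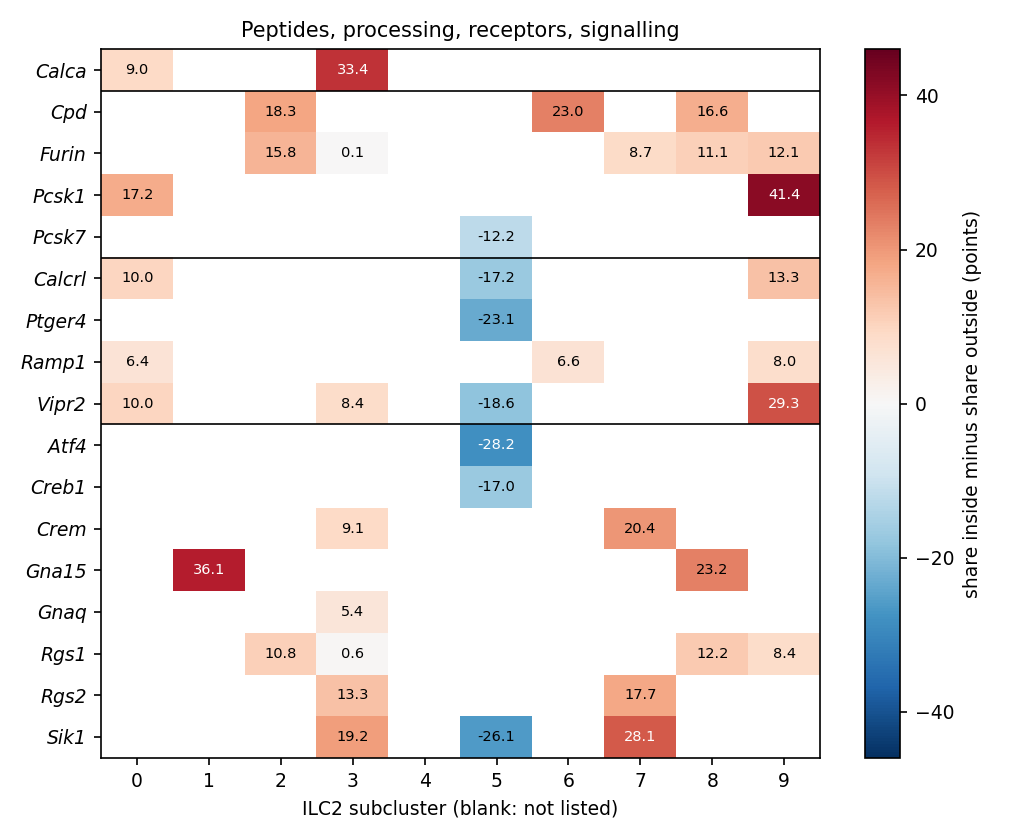
Share of cells inside minus share outside, in percentage points (colour and printed value), for each gene of the 4 pathway lists (rows, set apart by lines) in each ILC2 subcluster that lists it (columns). *Pcsk1* (41.4 points) and *Vipr2* (29.3 points) are widest in subcluster 9 and *Calca* (33.4 points) in subcluster 3, and every value in subcluster 5 is below 0.

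Other genes moved with the members in these subclusters. Subcluster 3 listed 14 of 21 immediate early and AP-1 genes, which tissue digestion can also induce. Among them were *Klf4* (43.4% against 18.1%), *Fosl2* (62.7% against 41.3%), *Fosb* (92.4% against 73.9%) and *Fos* (92.9% against 77.9%). A share at least 10 points above that of other ILC2s was reached by 7 of the 14. Subcluster 0 listed 1 of them, *Fosb*, and subcluster 9 listed 0. Subclusters that listed no member listed such genes too. Subcluster 7 listed 7, all at least 10 points above, while subclusters 1, 8 and 2 listed 6, 4 and 2. Subcluster 5 listed 9, of which 1 had the higher share inside. Of the 2629 genes of the ILC2 subcluster table, 270 were listed for subcluster 7 and 363, 253 and 131 for subclusters 1, 8 and 2. For subcluster 5 it was 1000, so genes of any kind were often listed there. The part of digestion in the share of *Calca* was not tested. Of 17 ILC2 effector genes, subcluster 3 listed 4. These were *Tnfsf11* (36.3% against 17.4%), *Cxcl2* (29.1% against 12.5%), *Csf2* (33.4% against 17.9%) and *Areg* (51.7% against 37.4%). Subcluster 0 listed *Tnfsf11* and *Bmp7*, at 37.0% against 13.9% and 37.1% against 34.3%. Among those listed for subcluster 9 was *Il5* (42.0% against 28.3%). *Il13* was listed for subclusters 1, 2, 4, 7 and 8, none of which listed *Calca* or *Pcsk1*. The 5 subclusters that did not list *Il13*, with 0, 3 and 9 among them, still had it in 17.8% of cells on average. Absence of a listing there does not mean absence of *Il13*.

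Markers of ILC2s and of other cells were read as a description of the subclusters. A marker spread evenly over the ILC2s could not be listed, so the counts below do not check the ILC2 label. Cells with markers of other lineages had been removed by the sort and again before the subclusters were made, so few such markers could be listed. Of 10 ILC2 marker genes, subcluster 3 listed 7, subcluster 0 listed 4 and subcluster 9 listed 2, *Il7r* (100% against 97.8%) and *Il17rb* (65.4% against 48.2%). *Gata3* was found in 93.6% of subcluster 0 against 89.9% of other ILC2s, and in 94.8% of subcluster 3 against 90.2%. Of the markers of T cells (10 genes), basophils and mast cells (7), the B lineage (7), myeloid cells (8), endothelium (5), hepatocytes (5) and epithelium with neuroendocrine cells (10), subclusters 0, 3 and 9 listed 0. Lung neuroendocrine cells also make CGRP, and none of the epithelial and neuroendocrine markers was listed for any of the 10 subclusters. Levels of unlisted markers were not given.

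The genes most like each member were those listed for exactly the same subclusters with the nearest shares. Besides *Calca*, 43 genes were listed for subclusters 0 and 3 alone. The nearest was *Ffar2*, a receptor gene for short-chain fatty acids, whose inside and outside shares differed from those of *Calca* by a mean of 6.93 points over both subclusters. It was followed by *Arhgef12* (7.03 points), *Fhl2* (8.25), *Plxdc2* (8.48) and *Klf9* (8.63). *Ffar2* was equally widespread in both subclusters, at 46.4% and 46.6%, and none of these 5 genes reached the share of *Calca* in subcluster 3. Besides *Pcsk1*, 28 genes were listed for subclusters 0 and 9 alone. The nearest was *Anxa1*, which encodes the phospholipid-binding protein annexin A1, with a mean difference of 8.93 points and shares of 51.9% in subcluster 0 and 66.7% in subcluster 9. *Mfge8* (9.05), *Bmyc* (9.35), *Polb* (9.95) and *Pink1* (10.8) came next. In subcluster 0 the share of *Polb* (36.4% against 36.7%) and of *Pink1* (31.7% against 33.1%) was lower inside than outside, unlike that of *Pcsk1*. Likeness here was measured on 2 subclusters of the same pooled cells and is a description.

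Among all sorted cells, *Calca* was listed for both types named ILC2 and for no other type. Its shares were 58.1% against 41.5% for ILC2 and 61.5% against 48.4% for ILC2_2. *Pcsk1* was listed for ILC2_2 alone, at 56.2% against 40.1%. That listing of *Pcsk1* did not pass the adjustment for multiple tests in the deposited table, whereas the other listings of *Calca* and *Pcsk1* in both tables did. Of the genes of this table, 8.10% were listed for ILC2 and 11.9% for ILC2_2. By the ratio of shares *Calca* came 83rd of 136 genes for ILC2 and 51st of 200 for ILC2_2, and *Pcsk1* came 32nd for ILC2_2. The solved sizes were 43.2% ± 0.0133 of all sorted cells for ILC2 and 1.78% ± 0.0146 for ILC2_2.

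Shares in this table are higher than in the other. ILC2s had *Calca* in 58.1% of cells here and in 26.8% in the ILC2 subcluster table. Of 116 genes listed for ILC2 and present in both tables, 112 had the higher share here, by a median of 16.8 points. The other 19 types had *Calca* in 40.8% of cells on average, and all types but ILC2_2 had *Pcsk1* in 40.1%. The paper made the subclusters from the ILC2s among these sorted cells, so both tables describe largely the same ILC2s. Their shares thus cannot all count transcripts in the same matrix, and a value above 0 need not be a detected transcript. Which matrix lay behind each table was not given in the sources used here. A share in either table holds for values above 0 in that table alone and is not carried over to the other. Of the 10 ILC2 markers, ILC2 listed 7, all with the higher share inside, and ILC2_2 listed 5, of which 2 had the higher share inside. Of the 10 epithelial and neuroendocrine markers both types listed 1, *Epcam*, at 47.5% against 36.9% for ILC2 and 69.1% against 41.0% for ILC2_2. ILC2_2 further listed 1 of 5 endothelial markers, *Pecam1* (73.8% against 46.7%), and 1 of 7 B lineage markers, *Igkc* (33.8% against 21.1%). With lower shares inside than outside, it listed 2 of 10 T cell markers, *Cd4* (47.8% against 54.6%) and *Trbc1* (66.4% against 87.6%). Neither type listed a marker of basophils and mast cells, myeloid cells or hepatocytes. The part of these cells in the listings of *Calca* and *Pcsk1* was not tested.

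The receptor genes of the CGRP pathway were also listed for ILC2. *Calcrl* was found in 63.3% of these cells against 39.7%, and *Ramp1* in 95.8% against 75.6%. *Ramp1* was also listed for 5 other types, at 94.9% to 99.2% of cells, among them ILC3 and MMP_LMPP (both 99.2%). *Calcrl* was listed for ILC2_2 as well (56.0% against 49.8%), and for Endothelium cell (95.6% against 49.5%) and MMP_LMPP (78.9% against 49.8%). ILC2_2 also listed *Cpd* (65.6% against 39.9%), while ILC2 listed *Furin* (74.5% against 55.7%). Of the signalling genes, ILC2 listed *Rgs2* (89.7% against 82.2%) and ILC2_2 listed *Rgs1*, at 63.1% against 84.5%.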

How the data were processed

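Per the labels, ILC2s were profiled with a 3' single-cell kit, 1 library per group. The authors aligned reads with Cell Ranger to mm10 and removed doublets and dead cells by flow cytometry and immune cells with few detected genes. They scaled and log transformed counts, clustered the cells in Seurat and ran its marker search on the merged libraries. No doublet caller was described, and none can be run on tables without cells. The values used were the deposited shares (fractions, to 3 decimals) of cells with a value above 0. The deposited tables also hold the authors' fold changes, all positive, and raw and adjusted p-values. These entered no computation. A row did not need to pass the adjusted p-value, and only whether the rows of *Calca* and *Pcsk1* did so is stated.

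The size of each cluster was solved by least squares from the genes with 2 or more listings (766 genes for ILC2 subclusters, 1044 for cell types), leaving out the members and without constraining the sum, and the fit was tested on simulated data. For each listing, the share outside plus the size times the difference of shares gives the share in all cells. The mean over listings was used. Limits for a pair of genes are the smallest and largest overlap that both shares allow. No test was made, because there were no values per library.

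Members and gene lists were chosen with earlier results of these data known. Named were the members, every listed gene of the peptide precursor, processing, receptor and signalling lists, at most 4 examples of the other lists with the largest differences of shares, and the 5 genes most like each member. 1 gene that this rule names is not reported here. *Gata3*, *Il13* and the markers of other cells listed for ILC2 and ILC2_2 were named after their values were seen. Positions are from GENCODE M21 (GRCm38, the assembly of mm10) and promoters from RefSeq. Computations used Python 3.11.15, NumPy 2.4.6 and pandas 2.3.3.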

Additional observations from a re-analysis of the deposited data

How the results depend on the processing

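Under the other 4 ways of fitting the solved size ran from 27.31% to 27.36% for subcluster 0, from 14.89% to 14.92% for subcluster 3, from 0.596% to 0.611% for subcluster 9, from 43.22% to 43.23% for ILC2 and from 1.77% to 1.78% for ILC2_2. Some of these moved by slightly more than 1 SE. At the ends of the rounding of the shares, the share of ILC2s with *Calca* ran from 26.7% to 26.8%, its mean in subclusters not listing it from 16.2% to 16.4%, and the part of its cells in subcluster 0 from 33.9% to 34.1%. For *Pcsk1* the share ran from 30.38% to 30.48% and the mean elsewhere from 25.27% to 25.41%. In the cell type table the share with *Calca* ran from 48.6% to 48.7%, its mean elsewhere from 40.72% to 40.91% and the part of the cells in which it was detected that lay in ILC2 from 51.5% to 51.7%.

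Stricter thresholds on a listing leave fewer by construction. A share at least 0.1 above that of the other cells left *Calca* in 1 subcluster, as did a share at least 1.5 times that of the others, which left 0 cell types for *Calca* and 0 for *Pcsk1*. With a share at least 0.1 above, 2 receptor genes and 5 signalling genes were still listed for a subcluster. *Pcsk1* in subcluster 9 came 2nd by difference of shares in place of 8th by ratio. Which genes are most like a member depends on the measure. Of the 5 named for *Calca*, 2 were among the first 5 by the largest difference and 2 by the log2 ratio of shares, and of the 5 named for *Pcsk1*, 1 was by the log2 ratio. No replicate could be left out, since each group had 1 library. Depth was unknown, and shares of subcluster 9 rest on the fewest cells.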

Other observations

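The 2 tables differed unevenly in the share of ILC2s with a pathway gene. Over the type ILC2 and over all subclustered ILC2s, *Calcrl* was at 63.3% and 25.1%, 38.2 points apart, and *Calca* at 58.1% and 26.8%, 31.3 points apart. *Ramp1* was at 95.8% and 92.0%, and *Furin* at 74.5% and 74.4%. These values are set side by side only, since the matrix behind each table was not given in the sources used here.

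Every gene of the 4 pathway lists that was listed for subcluster 5 (*Atf4*, *Calcrl*, *Creb1*, *Pcsk7*, *Ptger4*, *Sik1* and *Vipr2*) had a lower share of cells inside than outside, as did 978 of the 1000 genes listed for that subcluster.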
